A study of Mus musculus with 14 samples.

Results

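The genes described here encode the receptor chains of the common gamma chain cytokines: Il2rg, the common gamma chain itself, and the partner chains Il2rb, Il2ra, Il15ra, Il7r, Il4ra and Il21r. They were taken by symbol from the deposited gene tables, which held all 7 of them among the 15319 genes of the TIL experiment, the 19825 genes of the Prdm1 experiment and the 15216 genes of the Bcl6 experiment. RNA was sequenced from mouse CD8+ T cells out of E.G7 tumors, E.G7 being an ovalbumin-expressing lymphoma line derived from EL4. Bcl6+, TIM-3+ and DN CD8+ tumor-infiltrating lymphocytes (TILs) came from mice with the Bcl6-RFP genotype that carried subcutaneous E.G7 tumors and were sorted on day 21; all 3 populations shared this genotype and tumor, and the labels do not spell out DN. OT-I cells, whose transgenic T cell receptor recognises an ovalbumin peptide, were sorted from E.G7 tumors about day 8 after transfer, as Prdm1-overexpressing cells with their control (labelled Prdm1neg) or as Bcl6-overexpressing cells with their control (labelled Bcl6neg). Per the labels, overexpressing and control cells were transferred together; the labels give neither the vector nor the promoter, the age of the mice, nor whether animals were pooled.

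Every one of these cytokines signals through the common gamma chain, which binds the kinase JAK3, paired with a chain that binds JAK1. IL-2 and IL-15 share the beta chain Il2rb and add a private alpha chain, Il2ra or Il15ra, which raises affinity; IL-7, IL-4 and IL-21 use Il7r, Il4ra and Il21r. STAT5 is the main factor downstream of IL-2, IL-15 and IL-7, STAT6 of IL-4 and STAT3 of IL-21. In CD8+ T cells, Il7r is known as a mark of naive and memory cells that falls on effector cells, and Il2ra as a gene induced by activation.

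In mm10, by the GENCODE M21 annotation, Il2ra and Il15ra were neighbours on chromosome 2 (11642807 to 11693193 and 11705290 to 11734317, both on the plus strand, 12096 bases apart). Il4ra and Il21r were neighbours on chromosome 7 (125552120 to 125579474 and 125603429 to 125633570, both on the plus strand, 23954 bases apart). Il7r (9505788 to 9530176) and Il2rb (78479256 to 78495271) both lay on the minus strand of chromosome 15, with 330 coding genes between them, and Il2rg on the minus strand of chromosome X (101264378 to 101268255). Neither neighbouring pair had another coding gene between its members.

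RefSeq promoter windows (GRCm38.p6) were found for 6 of the 7 genes, as 7 windows, and Il2rb had no window. The 250 bases before the start were searched on both strands for TTCNNNGAA (bound by STAT factors), AGNGAAAG (bound by Blimp-1, the product of Prdm1), GTAAACA (bound by FOXO factors) and GGTGTGA (bound by T-box factors). Of 32851 mouse windows, 7.02%, 7.3%, 3.17% and 3.33% held them in that order. Il7r, Il4ra and Il21r each held 1 match. The windows of Il2ra, Il15ra and Il2rg held none. Il15ra had more than 1 window, and that at chr2:11705462-11705711 lies within its GENCODE gene. Stretches are shown for the genes with a match, and RNA levels played no part in this choice. A match in this window is a string of letters, not a measured site. Starts here are those of RefSeq, which for Il7r, Il4ra and Il15ra lie inside the GENCODE genes given above. The Il7r stretch lies within its GENCODE gene, and the Il4ra stretch ends just before its own. Each is printed 5′ to 3′ on the gene's strand with the match in capitals. The Il7r stretch (chr15:9529999-9530028, minus strand) holds a TTCNNNGAA match 142 bases before the RefSeq start, the Il4ra stretch (chr7:125552021-125552119, plus strand) an AGNGAAAG match 223 bases before it, and the Il21r stretch (chr7:125603179-125603428, plus strand) GTAAACA on the opposite strand 38 bases before it.
Il7r: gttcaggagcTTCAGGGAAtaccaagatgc
Il4ra: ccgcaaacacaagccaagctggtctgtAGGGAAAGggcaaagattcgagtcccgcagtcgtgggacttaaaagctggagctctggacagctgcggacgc
Il21r: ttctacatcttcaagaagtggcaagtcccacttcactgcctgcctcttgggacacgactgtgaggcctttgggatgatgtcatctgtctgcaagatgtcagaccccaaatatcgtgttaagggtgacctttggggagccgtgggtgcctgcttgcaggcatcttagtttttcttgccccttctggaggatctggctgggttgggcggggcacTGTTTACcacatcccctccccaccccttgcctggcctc

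Each of the 7 groups had 2 libraries, with 18309162 to 22322079 counts per library. Levels are given in FPKM (fragment counts scaled to gene length and library size) as deposited, for replicate 1 and then replicate 2. In the TIL and Bcl6 tables that size did not follow the total count. TIM-3+ replicate 1 held 22097550 counts and Bcl6+ replicate 1 held 20185577, but the FPKM divisor of the first was 0.928 of the second. Bcl6 control replicate 2 held 20575418 counts and Bcl6-overexpressing replicate 1 held 21961117, but the divisor of the first was 1.065 of the second. Changes are edgeR log2 fold changes on the deposited counts, with their standard error (SE) and an adjusted p across all genes tested. A gene passes at an adjusted p below 0.05. Whether replicates are separate animals is not stated, so p-values measure only the spread between these samples. All 11 CD8 T cell identity genes were detected in all 14 libraries. The labels held for Bcl6, at 58.4 FPKM in Bcl6+, 2.41 in TIM-3+ and 13.1 in DN TILs, and 11.9 FPKM in Bcl6-overexpressing against 0.551 in control OT-I cells. Havcr2, the gene for TIM-3, was at 15.8 FPKM in Bcl6+, 479 in TIM-3+ and 65.6 in DN TILs. In the Prdm1 experiment Bcl6 was at 2.79 FPKM in overexpressing cells against 1.23 in controls (log2 fold change 1.28, edgeR adjusted p = 0.0886). Prdm1 was at 25.2 and 33.3 FPKM in Prdm1-overexpressing cells, against 19.4 and 16.1 in their controls. Its log2 fold change of 0.81 (SE 0.19) missed the threshold (edgeR adjusted p = 0.0923). It passed with DESeq2 (adjusted p = 0.0346), in a fit of all 8 OT-I libraries (adjusted p = 0.0388) and with the replicate number as a block. Without Prdm1-overexpressing replicate 1 the value was 0.96. The labels do not say which part of Prdm1 or Bcl6 was introduced, so how much of its RNA the gene's counts hold is unknown. In bulk samples, fewer cells of a type and less RNA per cell cannot be told apart.

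In TILs, the receptor genes differed by population, with Il2rb and Il2ra highest in TIM-3+ cells, Il21r and Il4ra highest in Bcl6+ cells, and Il7r low in TIM-3+ cells. Of the 7 genes, 3 were higher and 3 lower in Bcl6+ than in TIM-3+ TILs, where 38.6% of all 9748 genes tested passed (19.1% higher, 19.6% lower). Against DN TILs, 2 were higher and 1 lower in Bcl6+ TILs (14.2% of all genes passed, 6.49% higher and 7.69% lower; 735 and 766 genes in place of 1383 when DN replicate 1 or 2 was left out), and 4 were higher and 2 lower in TIM-3+ TILs (28.2% of all genes, 14.9% higher and 13.2% lower; 1696 and 1734 in place of 2745 without DN replicate 1 or 2). These comparisons share libraries. The libraries of the 2 groups did not overlap for 6 of the 7 genes in Bcl6+ against TIM-3+ TILs (68.8% of all genes, in TMM-scaled counts), for 5 in Bcl6+ against DN TILs (54.4%) and for 6 in TIM-3+ against DN TILs (65.0%). The median log2 fold change of the 7 genes was 0.31, -0.03 and 0.20 in these comparisons, beside 0.01, 0.00 and -0.01 over all genes.

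**Figure D1:**
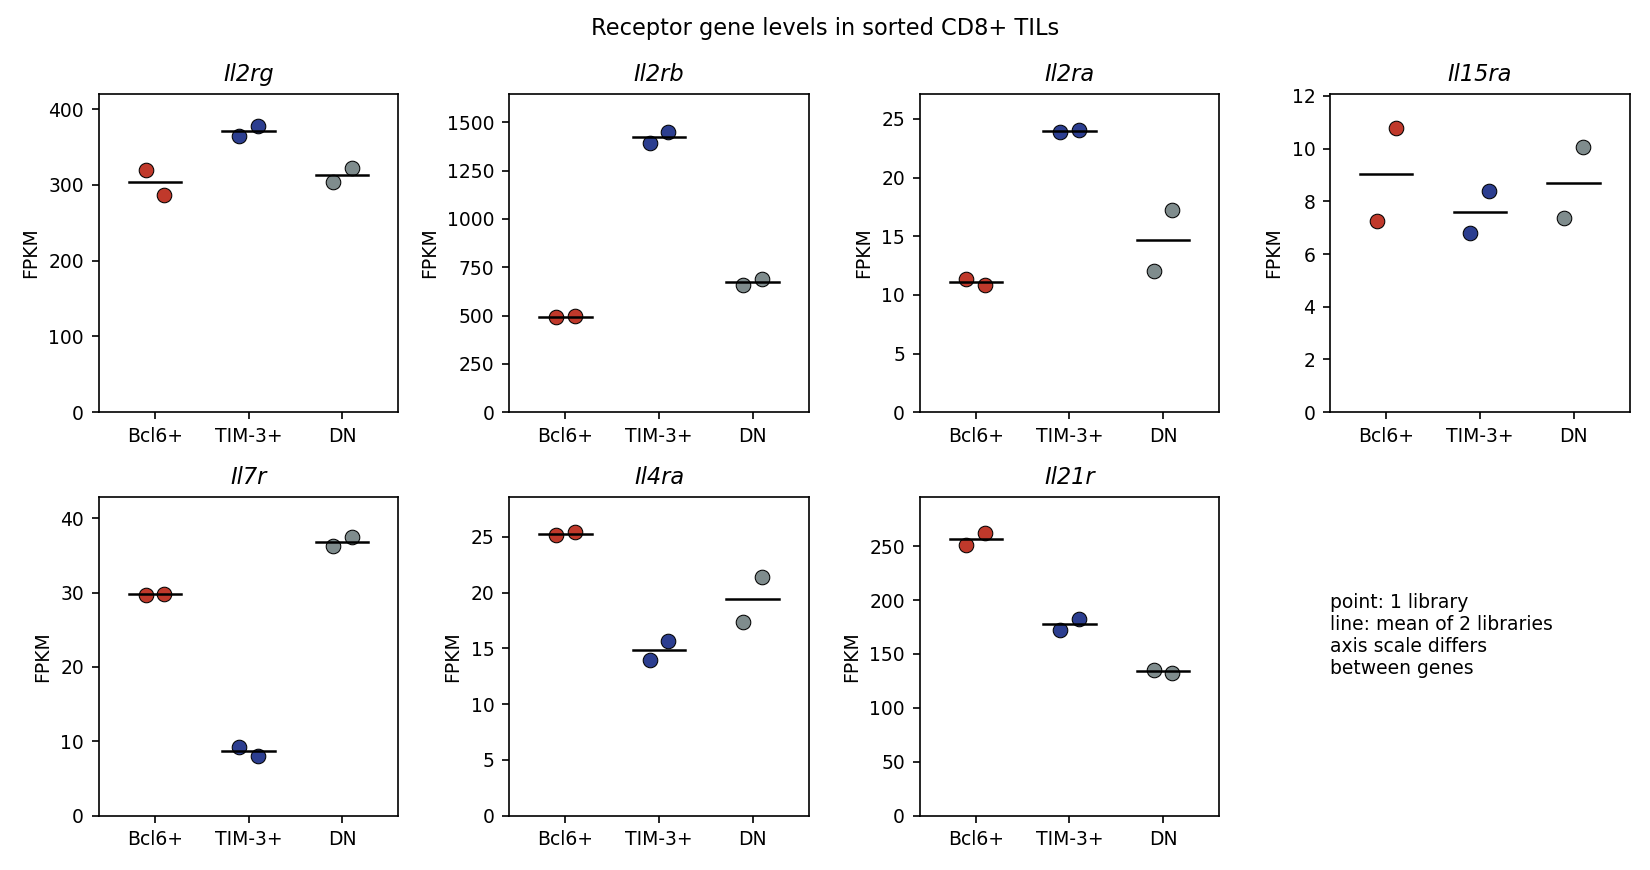
FPKM of each receptor gene (y axis, starting at 0, with a scale of its own for each gene) in Bcl6+, TIM-3+ and DN TILs (x axis). Each point is 1 library and each line the mean of 2 libraries; Il2rb reaches 1393 and 1451 FPKM in TIM-3+ TILs, and Il7r falls to 9.23 and 8.09 FPKM there.

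Il2rb, the beta chain of the IL-2 and IL-15 receptors, was the most abundant of the 7 in every TIL library. It was at 493 and 497 FPKM in Bcl6+, 1393 and 1451 in TIM-3+, and 659 and 690.1 in DN TILs. The 3 populations did not overlap and stood in the order TIM-3+, DN, Bcl6+. Il2rb was lower in Bcl6+ than in TIM-3+ TILs (log2 fold change -1.46, SE 0.04, a 2.76-fold difference, edgeR adjusted p = 2.24e-12), lower in Bcl6+ than in DN TILs (-0.43, adjusted p = 2.03e-06) and higher in TIM-3+ than in DN TILs (1.03, adjusted p = 2.91e-10). NK cells also carry this chain. The 4 listed NK and innate lymphoid marker genes summed to 277 to 287 CPM (counts scaled by TMM to a common library total of 1000000) in Bcl6+, 46.9 to 53.3 in TIM-3+ and 112 to 117 in DN TILs. Most of that sum was Kit; Klrb1c had 15 and 47 counts in Bcl6+, 36 and 32 in TIM-3+ and 86 and 100 in DN TILs. Their part in the Il2rb result was not tested.

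Il2ra, the IL-2 alpha chain, was at 11.4 and 10.9 FPKM in Bcl6+, 23.9 and 24.0 in TIM-3+, and 12.02 and 17.3 in DN TILs. Both TIM-3+ libraries stood above all others, and the DN libraries were far apart. Il2ra was lower in Bcl6+ than in TIM-3+ TILs by 2.07-fold (log2 fold change -1.05, SE 0.15, edgeR adjusted p = 6.94e-05) and higher in TIM-3+ than in DN TILs (0.67, SE 0.15, adjusted p = 0.00366). The second call was lost without DN replicate 1 (0.43, adjusted p = 0.0569). Bcl6+ and DN TILs differed by -0.38 (95% interval -0.70 to -0.06, adjusted p = 0.112), which passed without DN replicate 1 (-0.61, adjusted p = 0.0186). Regulatory T cells are rich in Il2ra: their defining gene Foxp3 had 8 and 0 counts in Bcl6+, 128 and 96 in TIM-3+, and 6 and 9 in DN TILs, and the 6 CD4 and regulatory T cell markers together summed to 883 to 910, 723 to 731 and 826 to 843 CPM. Of the 5 tested, 1 was higher and 1 lower in Bcl6+ than in TIM-3+ TILs. This was 40% of them, near the 38.6% of all genes. Against DN TILs, 1 was higher and 3 lower in Bcl6+ TILs (80%, beside 14.2% of all genes). In TIM-3+ against DN TILs 0 were higher and 3 lower (60%, beside 28.2% of all genes). The part of cells that carry these markers in the Il2ra results was not tested.

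Il15ra, the IL-15 alpha chain, which can also present IL-15 to a neighbouring cell, had the lowest mean of the 7, at 7.25 and 10.8 FPKM in Bcl6+, 6.78 and 8.41 in TIM-3+, and 7.36 and 10.05 in DN TILs. In TIM-3+ TILs its libraries overlapped with those of Il7r, and for Il15ra itself the populations overlapped. No difference passed: the log2 fold change was 0.31 between Bcl6+ and TIM-3+ TILs (95% interval -0.17 to 0.78, edgeR adjusted p = 0.292), 0.07 between Bcl6+ and DN TILs (-0.41 to 0.54, adjusted p = 0.897) and -0.24 between TIM-3+ and DN TILs (-0.72 to 0.23, adjusted p = 0.46). The first value was 0.57 without Bcl6+ replicate 1 and -0.0018 without Bcl6+ replicate 2. In the comparisons with DN TILs these intervals include differences of the size seen for Il4ra.

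Il2rg, the common gamma chain, was at 320.1 and 287 FPKM in Bcl6+, 364 and 378 in TIM-3+, and 303 and 323 in DN TILs. The TIM-3+ libraries were above the others, and the Bcl6+ and DN libraries overlapped. It was lower in Bcl6+ than in TIM-3+ TILs by a log2 fold change of -0.23 (SE 0.06, edgeR adjusted p = 0.01), a direction that turned to 0.03 when values were scaled to TPM, and higher in TIM-3+ than in DN TILs by 0.20 (SE 0.06, adjusted p = 0.0289). The first call was lost without Bcl6+ replicate 2 (-0.15, adjusted p = 0.0781) or TIM-3+ replicate 2 (-0.21, adjusted p = 0.0541) and with scaling to total counts (-0.05, adjusted p = 0.562). The second was lost without TIM-3+ replicate 2 (0.17, adjusted p = 0.13), DN replicate 1 (0.16, adjusted p = 0.228) or DN replicate 2 (0.24, adjusted p = 0.0749), when scaled to TPM (0.01, adjusted p = 0.88) and when scaled to total counts (0.04, adjusted p = 0.703). The last scaling moved the median of all genes by 0.19 in the first comparison and by -0.18 in the second. Bcl6+ and DN TILs differed by -0.03 (95% interval -0.16 to 0.10, adjusted p = 0.825).

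Set against Il2rg in the same library, Il2rb differed more than its shared partner. The ratio of Il2rb to Il2rg FPKM was 1.54 and 1.73 in Bcl6+, 3.82 and 3.84 in TIM-3+, and 2.17 and 2.14 in DN TILs. These ratios did not overlap between populations. A ratio of RNA levels says nothing of how many chains stood on the surface.

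Il7r, the IL-7 receptor alpha chain, was at 29.7 and 29.9 FPKM in Bcl6+, 9.23 and 8.09 in TIM-3+, and 36.2 and 37.5 in DN TILs. It was lowest in TIM-3+ TILs and highest in DN TILs, with no overlap. Il7r was higher in Bcl6+ than in TIM-3+ TILs by a log2 fold change of 1.84 (SE 0.11, 3.59-fold, edgeR adjusted p = 1.17e-08) and lower in TIM-3+ than in DN TILs by 4.39-fold (-2.13, SE 0.11, adjusted p = 6.86e-09). Bcl6+ and DN TILs differed by -0.29 (95% interval -0.51 to -0.07), with an adjusted p of 0.0775; this passed with DESeq2 (adjusted p = 0.0499) and when only those 4 libraries were fitted (adjusted p = 0.0396). The ratio of Il2rb to Il7r FPKM was 16.6 in both Bcl6+ libraries, 151 and 179 in TIM-3+, and 18.2 and 18.4 in DN TILs. This ratio was close in Bcl6+ and DN TILs and far higher in TIM-3+ TILs.

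Il4ra, which forms the IL-4 receptor with the common gamma chain, was at 25.2 and 25.4 FPKM in Bcl6+, 14.0 and 15.7 in TIM-3+, and 17.4 and 21.4 in DN TILs. The populations did not overlap and stood in the order Bcl6+, DN, TIM-3+. Il4ra was higher in Bcl6+ than in TIM-3+ TILs by a log2 fold change of 0.83 (SE 0.12, edgeR adjusted p = 6.52e-05), higher in Bcl6+ than in DN TILs by 0.40 (SE 0.12, adjusted p = 0.0343) and lower in TIM-3+ than in DN TILs (-0.43, SE 0.12, adjusted p = 0.0126). The Bcl6+ against DN call was lost without Bcl6+ replicate 1 (0.40, adjusted p = 0.0885), Bcl6+ replicate 2 (0.39, adjusted p = 0.101) or DN replicate 1 (0.26, adjusted p = 0.328), and the TIM-3+ against DN call without TIM-3+ replicate 1 (-0.35, adjusted p = 0.0909) or DN replicate 2 (-0.28, adjusted p = 0.184).

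Il21r, the IL-21 receptor, was at 251 and 262 FPKM in Bcl6+, 173 and 183 in TIM-3+, and 135 and 133 in DN TILs. It was the third most abundant of the 7 in each population and stood in the order Bcl6+, TIM-3+, DN with no overlap. Il21r was higher in Bcl6+ than in TIM-3+ TILs by a log2 fold change of 0.59 (SE 0.06, edgeR adjusted p = 2.03e-06), higher in Bcl6+ than in DN TILs by 0.95 (SE 0.06, adjusted p = 1.04e-07) and higher in TIM-3+ than in DN TILs by 0.36 (SE 0.06, adjusted p = 0.00034). Its neighbour Il4ra had its lowest level in TIM-3+ and not in DN TILs.

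Markers of cells that also carry Il4ra, Il21r and Il15ra moved in these comparisons. The 13 macrophage and monocyte markers summed to 296 to 324 CPM in Bcl6+, 125 to 144 in TIM-3+ and 255 to 263 in DN TILs. Of 9 tested, 8 were higher and 1 lower in Bcl6+ than in TIM-3+ TILs, where 38.6% of all genes passed. Csf1r, which defines that lineage, had 364 and 275 counts in Bcl6+, 16 and 13 in TIM-3+, and 135 and 147 in DN TILs. The 7 B cell markers summed to 20.1 to 23.0, 0.974 to 1.37 and 13.3 to 15.5 CPM; Cd79b was at 0 in both TIM-3+ libraries. The 11 CD8 T cell identity genes summed to 7630 to 7670, 11200 to 11300 and 8400 to 8450 CPM, with 9 lower and 1 higher in Bcl6+ than in TIM-3+ TILs. The 4 listed lymphoma and thymocyte markers summed to 19.3 to 25.8 CPM in Bcl6+ and 2.78 to 4.58 in TIM-3+ TILs. In DN TILs their sum was no lower than 17.2 CPM. Only 1 of them could be tested. That gene was higher in Bcl6+ than in TIM-3+ TILs (log2 fold change 2.46) and lower in TIM-3+ than in DN TILs (-2.35). Between Bcl6+ and DN TILs it did not pass (0.11). The part of any of these cells, tumor cells included, in the receptor results was not tested.

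The genes with the nearest pattern across the 6 TIL libraries were found by the Euclidean distance between centred log2(CPM + 1) values, among 9524 genes. For Il2rb these were Capn2 and Mcm5 (distance 0.165 for both) and for Il2ra they were Btbd19 (0.215) and Ulk2 (0.218), all highest in TIM-3+ TILs. The genes nearest to Il7r were H60b (0.259) and Stard10 (0.262), both lowest in TIM-3+ TILs. Nearest to Il4ra were Klhl42 (0.106) and Zmynd8 (0.146), to Il21r Trpm1 (0.0982) and Cep128 (0.111), to Il2rg Usp4 (0.0779) and Psma2 (0.078), and to Il15ra Axin1 (0.086) and Bsdc1 (0.174). Small distances for Il2rg and Il15ra go with small differences between populations.

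In OT-I cells the shared chains Il2rg and Il2rb were in a different order from TILs: Il2rg was above Il2rb in FPKM in all 4 libraries of the Prdm1 experiment and in both control libraries of the Bcl6 experiment, while Il2rb was above Il2rg in both Bcl6-overexpressing libraries. The tables of the TIL and OT-I experiments were made separately, so this order is read within each library only. In Prdm1-overexpressing cells 1 of the 7 genes passed and was higher (1.36% of all 9947 genes passed, 1.16% higher and 0.201% lower), and in Bcl6-overexpressing cells 1 was higher and 3 lower (48.8% of all 9669 genes, 25.4% higher and 23.4% lower). Libraries did not overlap for 5 of the 7 genes with Prdm1 (51.1% of all genes) and for 6 with Bcl6 (75.7%). The median log2 fold change of the 7 was -0.07 with Prdm1 and -0.09 with Bcl6, beside 0.02 and 0.00 over all genes. The number of all genes that passed in the Prdm1 experiment was 135; it was 643 without Prdm1-overexpressing replicate 1, and 7 and 3 without control replicate 1 or 2. Of the 7 receptor genes, 2 passed with Prdm1 when either overexpressing library was left out and 0 when either control was; with Bcl6, 2 passed without Bcl6-overexpressing replicate 1 or control replicate 1.

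**Figure D2:**
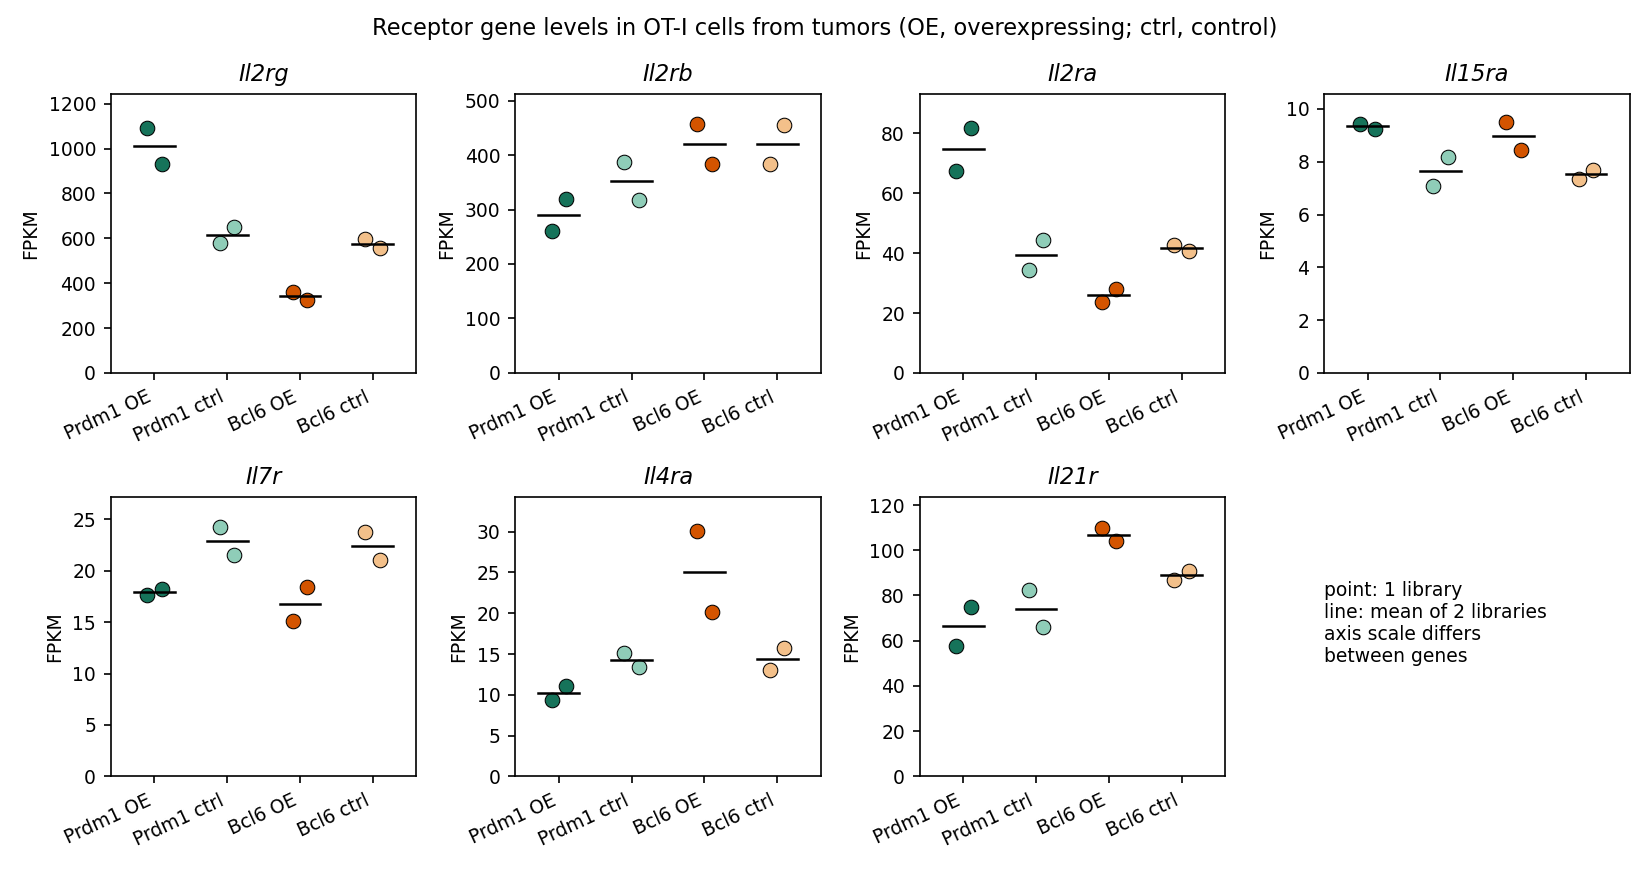
FPKM of each receptor gene (y axis, starting at 0, with a scale of its own for each gene) in OT-I cells that overexpress (OE) Prdm1 or Bcl6, each left of its control (ctrl). Each point is 1 library and each line the mean of 2; Il2ra stands at 67.4 and 81.9 FPKM with Prdm1 overexpression and at 23.8 and 28.1 FPKM with Bcl6 overexpression.

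Il2ra was the gene that passed in both OT-I experiments. It was at 67.4 and 81.9 FPKM in Prdm1-overexpressing cells, against 34.3 and 44.4 in their controls. It was at 23.8 and 28.1 FPKM in Bcl6-overexpressing cells, against 42.6 and 40.6 in theirs. Groups did not overlap in either experiment. The log2 fold change was 1.02 with Prdm1 (SE 0.18, 2.03-fold, edgeR adjusted p = 0.048) and -0.77 with Bcl6 (SE 0.17, 1.70-fold lower, adjusted p = 0.000879). The Prdm1 call was lost without control replicate 1 (0.85, adjusted p = 0.277) or control replicate 2 (1.21, adjusted p = 0.199), without a filter (0.86, adjusted p = 0.115) and with limma on FPKM (0.91, adjusted p = 0.0913). Foxp3 had 40 and 14 counts in Prdm1-overexpressing cells against 62 and 3 in controls, and 100 and 75 in Bcl6-overexpressing cells against 30 and 53; its part in the Il2ra results was not tested. The difference between the experiments was not tested.

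Il2rg was at 1094 and 931 FPKM in Prdm1-overexpressing cells, against 579 and 652 in controls, and at 361 and 323 FPKM in Bcl6-overexpressing cells, against 596 and 555 in controls. Both pairs of groups were apart. With Bcl6 the log2 fold change was -0.84 (SE 0.17, 1.79-fold lower, edgeR adjusted p = 0.000379), and it passed under all 13 alternatives tried. With Prdm1 it was 0.82 (95% interval 0.42 to 1.23, adjusted p = 0.0763), which missed the threshold. It passed with DESeq2 (0.78, adjusted p = 0.0106), with TPM scaling (0.76, adjusted p = 0.0377) and in the fit of all 8 OT-I libraries (0.80, adjusted p = 0.0178). It also passed with the replicate number as a block, though the labels do not say that a number marks a shared animal. The value was 0.65 without Prdm1-overexpressing replicate 1 and 0.90 without replicate 2. The ratio of Il2rb to Il2rg FPKM was 0.238 and 0.342 in Prdm1-overexpressing cells against 0.67 and 0.488 in controls, and 1.27 and 1.19 in Bcl6-overexpressing cells against 0.643 and 0.821 in controls. NK cells also carry Il2rg: the 7 NK and innate lymphoid markers summed to 46.9 to 58.6 CPM in Prdm1-overexpressing cells against 26.8 to 28.9 in controls, and to 13.3 to 16.3 CPM in Bcl6-overexpressing cells against 31.6 to 35.5 in controls. Their defining gene Ncr1 had 22 and 32 counts in Prdm1-overexpressing cells against 48 and 82 in controls, and 6 and 0 in Bcl6-overexpressing cells against 34 and 42 in controls. The part of these cells in the Il2rg results was not tested.

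Il2rb itself did not pass in either OT-I experiment. It was at 261 and 319 FPKM in Prdm1-overexpressing cells, against 388 and 318 in controls, and at 457 and 383 FPKM in Bcl6-overexpressing cells, against 384 and 456 in controls, with overlap in both. The log2 fold change was -0.19 with Prdm1 (95% interval -0.60 to 0.22, edgeR adjusted p = 0.603) and -0.09 with Bcl6 (-0.45 to 0.28, adjusted p = 0.71). The sign of the Bcl6 value turned under 5 alternatives, and with TPM scaling it was -0.42 (adjusted p = 0.0469), where the median of all genes lay at -0.32.

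Il4ra was at 30.1 and 20.1 FPKM in Bcl6-overexpressing cells, against 13.1 and 15.7 in controls, with no overlap. The log2 fold change was 0.71 (SE 0.20, edgeR adjusted p = 0.00569), and the overexpressing libraries were far apart. The call was lost without Bcl6-overexpressing replicate 1 (0.39, adjusted p = 0.0628) or control replicate 1 (0.58, adjusted p = 0.105). In Prdm1-overexpressing cells Il4ra was at 9.31 and 11.1 FPKM, against 15.2 and 13.4 in controls, a log2 fold change of -0.39 (95% interval -0.82 to 0.04, adjusted p = 0.308). Il4ra is also carried by myeloid cells. Their 13 markers summed to 884 to 975 CPM in Bcl6-overexpressing cells against 721 to 723 in controls. Of 10 tested, 9 were higher and 1 lower, where 48.8% of all genes passed. Csf1r had 554 and 535 counts against 104 and 170. In the Prdm1 experiment the 13 markers summed to 1200 to 1260 CPM in overexpressing cells against 1080 to 1100 in controls. Of 11 tested there, 0 passed, beside 1.36% of all genes, and their median log2 fold change was -0.65. The part of myeloid cells in the Il4ra results was not tested.

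Il7r was at 15.1 and 18.4 FPKM in Bcl6-overexpressing cells, against 23.8 and 21.0 in controls, and at 17.6 and 18.2 FPKM in Prdm1-overexpressing cells, against 24.2 and 21.6 in controls. Both overexpressing groups were below their controls without overlap. The fall with Bcl6 passed narrowly (log2 fold change -0.51, SE 0.19, edgeR adjusted p = 0.0287) and was lost without Bcl6-overexpressing replicate 1 (-0.37, adjusted p = 0.0809), control replicate 1 (-0.43, adjusted p = 0.241) or control replicate 2 (-0.60, adjusted p = 0.0813), without a filter (-0.40, adjusted p = 0.0851) and with limma on FPKM (-0.40, adjusted p = 0.0781). The Prdm1 value was -0.26 (95% interval -0.65 to 0.14, adjusted p = 0.467). In TILs, Il7r was higher in the Bcl6+ than in the TIM-3+ population. Against DN TILs its value in Bcl6+ TILs was -0.29 (95% interval -0.51 to -0.07, edgeR adjusted p = 0.0775).

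Il21r and Il15ra passed in neither OT-I experiment. Il21r was at 57.6 and 75.1 FPKM in Prdm1-overexpressing cells, against 82.3 and 66.0 in controls (log2 fold change -0.07, 95% interval -0.50 to 0.37, edgeR adjusted p = 0.88), and at 110 and 104 FPKM in Bcl6-overexpressing cells, against 87.0 and 90.9 in controls (0.18, -0.16 to 0.52, adjusted p = 0.388). Il15ra was at 9.43 and 9.25 FPKM in Prdm1-overexpressing cells, against 7.08 and 8.19 in controls (0.39, -0.10 to 0.89, adjusted p = 0.367), and at 9.50 and 8.46 FPKM in Bcl6-overexpressing cells, against 7.35 and 7.69 in controls (0.17, -0.27 to 0.61, adjusted p = 0.533). Il15ra was higher in both overexpressing libraries than in both controls in each experiment, and Il21r in the Bcl6 experiment only. Of all genes, 51.1% with Prdm1 and 75.7% with Bcl6 had no overlap in either direction, in TMM-scaled counts. With TPM scaling the Bcl6 values turned to -0.17 for Il15ra and -0.16 for Il21r.

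**Figure D3:**
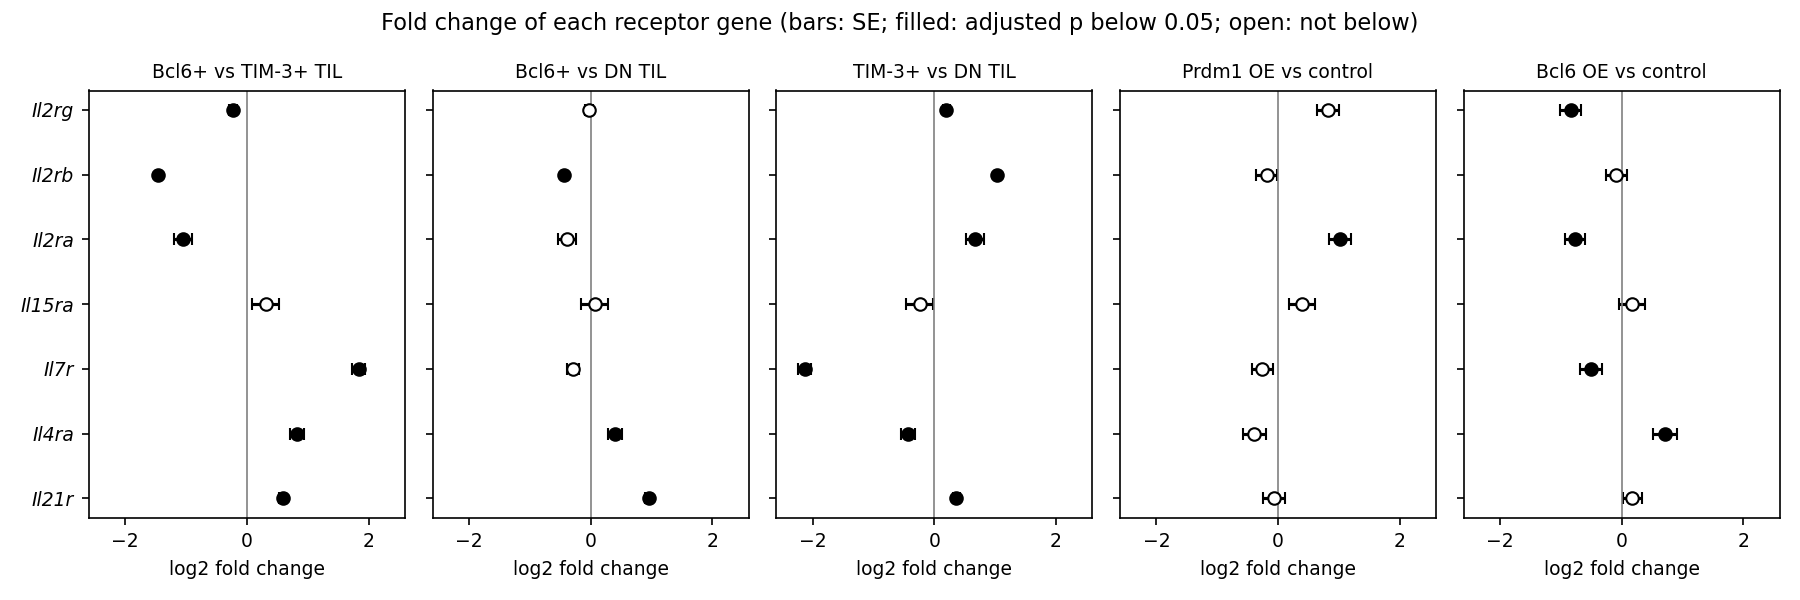
edgeR log2 fold change of each receptor gene (x axis) in the 5 comparisons, with bars of 1 SE; filled points have an adjusted p below 0.05 and open points do not. Il2ra and Il2rb stand left of 0 in Bcl6+ against TIM-3+ TILs while Il7r, Il4ra and Il21r stand right of it, and Il2ra and Il2rg stand on opposite sides of 0 in the Prdm1 and Bcl6 experiments, Il2rg as an open point in the Prdm1 experiment.

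The other chains of the family showed a marked difference for Il9r, which pairs with the common gamma chain for IL-9. Il9r was at 11.3 and 10.5 FPKM in Bcl6+, 0.271 and 0.696 in TIM-3+, and 5.60 and 5.08 in DN TILs, in that order without overlap. It was higher in Bcl6+ than in TIM-3+ TILs by a log2 fold change of 4.55 (SE 0.33, edgeR adjusted p = 8.87e-08) and lower in TIM-3+ than in DN TILs (-3.51, adjusted p = 2.08e-06). The Bcl6+ against DN value of 1.04 (adjusted p = 0.018) was lost when any 1 library of either population was left out, with an adjusted p of up to 0.178. Crlf2, a chain of the TSLP receptor, was at 53.5 and 35.2 FPKM in Bcl6-overexpressing OT-I cells, against 16.2 and 15.005 in controls (1.42, SE 0.23, adjusted p = 3.38e-05). Ligand transcripts were scarce: of 8 ligand genes, 1 could be tested in the TIL and Bcl6 experiments and 2 in the Prdm1 experiment. Il2 had 50 and 5 counts in Bcl6+, 3 and 1 in TIM-3+, and 51 and 58 in DN TILs, and 184 and 194 counts in Bcl6-overexpressing OT-I cells against 37 and 10 in controls. The last difference passed (2.93, SE 0.51, edgeR adjusted p = 8.11e-05). In TILs, Il2 was lower in TIM-3+ than in DN cells (-4.62, adjusted p = 0.00674). It was higher in Bcl6+ than in TIM-3+ cells (3.65, edgeR adjusted p = 0.022). That call was lost without a filter, with limma and without TIM-3+ replicate 2 (3.09). Only 11 of the 15 alternatives held a value for Il2 in this comparison. Between Bcl6+ and DN cells it did not pass (-0.97).

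Among the 11 Janus kinases and STAT factors, 5 were higher and 3 lower in Bcl6+ than in TIM-3+ TILs, with a median log2 fold change of 0.16. Of all genes, 38.6% passed in that comparison, 14.2% in Bcl6+ against DN TILs and 28.2% in TIM-3+ against DN TILs. In OT-I cells the share of all genes was 1.36% with Prdm1 and 48.8% with Bcl6. Jak3, the kinase bound to the common gamma chain, was at 61.0 and 65.3 FPKM in Bcl6+, 110 and 118 in TIM-3+, and 69.2 and 67.4 in DN TILs, lower in Bcl6+ than in TIM-3+ TILs (log2 fold change -0.79, SE 0.07, edgeR adjusted p = 5.2e-07). Jak2, which the receptors for IL-3 and related cytokines use, was higher there (2.13, SE 0.16, adjusted p = 1.87e-07), as was Stat5a (1.04, SE 0.13, adjusted p = 1.92e-05). Against DN TILs, 4 were higher and 1 lower in Bcl6+ TILs (Stat3 0.45, adjusted p = 9.7e-06; Jak2 1.03, adjusted p = 0.000457), a count of 5 that was 3 without Bcl6+ replicate 1 and 2 without DN replicate 1. In TIM-3+ against DN TILs 4 were higher and 3 lower. In the OT-I cells 0 of the 11 passed with Prdm1 by edgeR (4 at an unadjusted p below 0.05, and 1 by DESeq2 or without either Prdm1-overexpressing library), and 3 were higher and 4 lower with Bcl6, a count of 7 that was 1 without either control library. Stat5a was at 22.9 and 22.5 FPKM in Bcl6-overexpressing cells, against 10.3 and 13.0 in controls (0.88, SE 0.18, adjusted p = 0.000482).

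**Figure D4:**
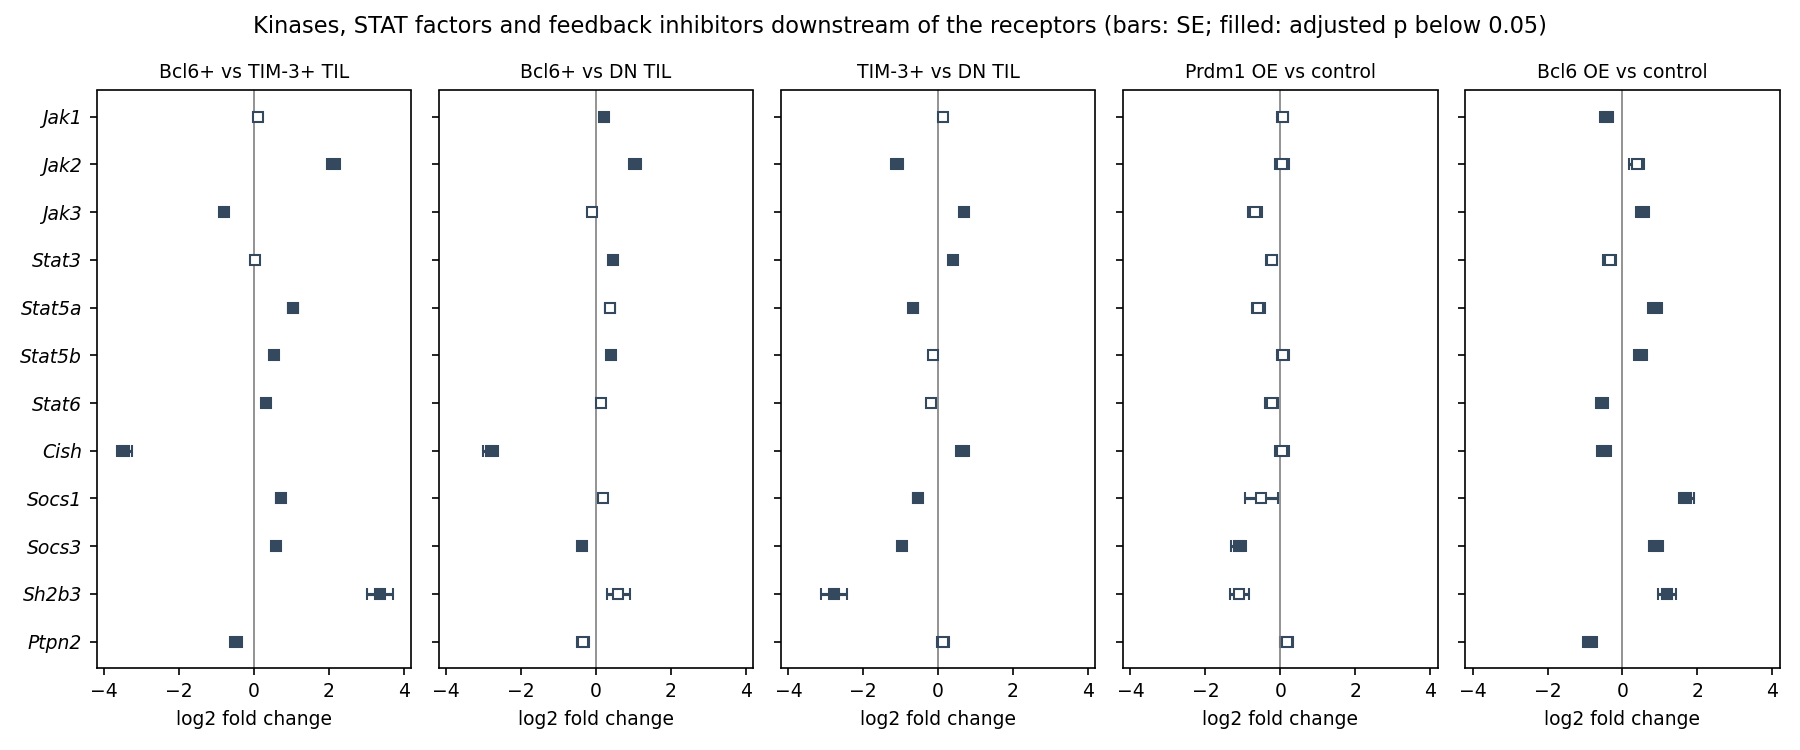
edgeR log2 fold change (x axis) of kinases, STAT factors and feedback inhibitors (y axis) in the 5 comparisons, with bars of 1 SE; filled squares have an adjusted p below 0.05. Cish lies far left in Bcl6+ against TIM-3+ TILs (-3.46) and Sh2b3 far right (3.37).

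Of 13 feedback inhibitors and phosphatases tested, 5 were higher and 2 lower in Bcl6+ than in TIM-3+ TILs, with a median log2 fold change of 0.34. This was 53.8% of them, beside 38.6% of all genes. Cish, a STAT5-induced inhibitor of IL-2 signals, was at 0.887 and 0.774 FPKM in Bcl6+, 9.82 and 9.24 in TIM-3+, and 5.63 and 6.18 in DN TILs. It was lower in Bcl6+ than in TIM-3+ TILs (log2 fold change -3.46, SE 0.19, edgeR adjusted p = 8.05e-09) and lower than in DN TILs (-2.81, SE 0.19, adjusted p = 2.86e-07). Sh2b3, which restrains JAK2, was at 13.3 and 14.1 FPKM in Bcl6+, 0.668 and 2.10 in TIM-3+, and 8.58 and 9.72 in DN TILs, higher in Bcl6+ than in TIM-3+ TILs (3.37, SE 0.35, adjusted p = 3.62e-06). Socs1 and Socs3, inhibitors of JAK kinases, were higher there too (0.72, adjusted p = 0.000265, and 0.59, adjusted p = 0.000381). Against DN TILs, 3 of the 13 were lower in Bcl6+ TILs, and in TIM-3+ against DN TILs 1 was higher and 5 lower. These were 23.1% and 46.2% of the 13, beside 14.2% and 28.2% of all genes.

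In OT-I cells, Socs1 was at 39.5 and 33.1 FPKM in Bcl6-overexpressing cells, against 11.9 and 9.15 in controls (log2 fold change 1.70, SE 0.20, edgeR adjusted p = 7.74e-07), and 4 of 14 inhibitors were higher and 6 lower. The inhibitors that passed were 71.4% of the 14, beside 48.8% of all genes. With Prdm1, 1.36% of all genes passed. In the Prdm1 experiment Socs3 was the only 1 of 13 that passed, at 10.9 and 11.5 FPKM against 27.3 and 24.7 in controls (-1.11, SE 0.19, adjusted p = 0.0463). That call was lost without control replicate 1 or control replicate 2, with an adjusted p of up to 0.208.

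Of 20 STAT5 target genes, 5 were higher and 9 lower in Bcl6+ than in TIM-3+ TILs (median log2 fold change 0.01), 1 higher and 8 lower in Bcl6+ than in DN TILs, and 8 higher and 4 lower in TIM-3+ than in DN TILs. These were 70%, 45% and 60% of the 20, beside 38.6%, 14.2% and 28.2% of all genes. Between Bcl6+ and TIM-3+ TILs the smallest p-values belonged to Prf1 (perforin, log2 fold change -3.60, edgeR adjusted p = 4.96e-15), Ifng (interferon gamma, -3.31, adjusted p = 9.81e-13), Id2 (an inhibitor of E proteins, -2.25, adjusted p = 3.28e-12) and Gzmb (granzyme B, -5.10, adjusted p = 9.85e-12). Other factors also control each of these genes. With Bcl6 overexpression 8 were higher and 4 lower, with Prf1 (-1.16, adjusted p = 1.04e-05) and Gzmb (-1.13, adjusted p = 1.78e-05) lower and Nfil3 (1.204, adjusted p = 1.45e-05) and Pim3 (1.16, adjusted p = 4.71e-05) higher. This was 60% of the 20, beside 48.8% of all genes. With Prdm1 overexpression 0 of the 20 passed by edgeR (6 at an unadjusted p below 0.05), beside 1.36% of all genes. By DESeq2 1 of them passed, and 5 with the replicate number as a block. Of 11 adaptor and PI3-kinase genes tested, 1 was higher and 3 lower in Bcl6+ than in TIM-3+ TILs. This was 36.4% of them, near the 38.6% of all genes. The smallest p-value was that of Pik3cd (-0.59, edgeR adjusted p = 3.95e-05). The count of 4 was 2 with scaling to total counts.

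Of 17 tested transcription factors known to act on Il7r, Il2ra or Il2rb, 8 were higher and 6 lower in Bcl6+ than in TIM-3+ TILs (median log2 fold change 0.24). This was 82.4% of them, beside 38.6% of all genes. The genes that passed include Bcl6, by which the cells were sorted, among the higher and Prdm1 among the lower. Tcf7 (TCF-1) was higher (log2 fold change 4.42, SE 0.12, edgeR adjusted p = 3.8e-12) and Tbx21 (T-bet, which acts on Il2rb) lower (-1.39, SE 0.08, adjusted p = 7.84e-09). In Bcl6-overexpressing OT-I cells 8 were higher and 4 lower, among them Tcf7 (1.81, adjusted p = 2.38e-08) and Klf2 (2.23, adjusted p = 9.81e-08) higher and Ets1 (-1.31, adjusted p = 3.01e-06) lower. The genes that passed were 70.6% of the 17, beside 48.8% of all genes. They include Bcl6, the introduced gene, whose rise was set by the design (4.34, edgeR adjusted p = 2e-11). With Prdm1, 1.36% of all genes passed. In Prdm1-overexpressing cells Tcf7 was the only 1 that passed, at 7.79 FPKM in both libraries against 40.1 and 47.5 in controls (-2.39, SE 0.19, adjusted p = 0.00591), and that call was lost without control replicate 2 (-2.27, adjusted p = 0.156). By DESeq2 4 of the 17 passed, and 9 with the replicate number as a block.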

How the data were processed

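RNA-seq of 14 libraries was used. Per the file headers, each deposited table holds a raw count and an FPKM value per gene. Per the submitters' processing notes, the TIL libraries involved Bowtie2, Subread, featureCounts, edgeR and DESeq2, the OT-I libraries HISAT2, featureCounts, RSEM and DESeq2, and the build was mm10; their versions, roles and strand setting were not stated. Overlapping gene models (Gm20489 for Il2rg, Gm44876 for Il4ra, Gm37881 for Il2ra) are not listed in the tables.

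Counts were tested with edgeR 4.0.16 (quasi-likelihood, TMM scaling, R 4.3.3), on genes whose mean reached 1 FPKM over the fit's libraries, with two-sided p-values and Benjamini-Hochberg adjustment over all genes tested. The 6 TIL libraries shared 1 fit, and the 4 libraries of an OT-I experiment another. The SE was derived from the F statistic of the test (log2 fold change divided by its square root). Deposited FPKM and TMM scale the libraries differently, by a factor of up to 1.11, so FPKM ratios and folds are not equal. The TIL and Bcl6 tables hold no gene whose counts sum to under 20.

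The members and lists were chosen with earlier results of these data known. Named genes were the 7 receptors, up to 4 members with the smallest p per list among those that passed, Bcl6, Prdm1 and Havcr2, and the 2 nearest genes per receptor; the marker genes were named after their values were seen, and some genes of the lists are not reported here by name. Alternatives were other scaling, DESeq2 1.42.0, limma 3.58.1 on log2(FPKM + 1) and log2(FPKM + 0.1), no filter, the replicate number as a block, other sample sets and each library left out; a group left with 1 library was assumed to vary like the others. The tests were tried on simulated counts.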

Additional observations from a re-analysis of the deposited data

How the results depend on the processing

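Over the 35 log2 fold changes of receptor genes, 440 of 497 values under alternatives kept their direction and side of the threshold, 31 lost the call, 10 gained it and 16 turned sign. The cause of the changes was not tested. The sign turned for values that had not passed, and for Il2rg in Bcl6+ against TIM-3+ TILs, which had. Il2rg was 0.030 in Bcl6+ against TIM-3+ TILs and 0.045 in Bcl6+ against DN TILs with TPM scaling, and ranged over -0.11 to 0.050 in the second comparison when 1 library was left out. Il15ra ranged over -0.0018 to 0.57 in Bcl6+ against TIM-3+ TILs and -0.25 to 0.32 in Bcl6+ against DN TILs, and Il21r over -0.29 to 0.11 with Prdm1, when 1 library was left out. With Bcl6 overexpression and TPM scaling Il15ra was -0.17 and Il21r -0.16; Il2rb was 0.018 without a filter, 0.000198 with limma on FPKM at either pseudocount, and -0.22 to 0.041 when 1 library was left out. Of the called receptor genes, Il4ra in Bcl6+ against DN TILs was lost under 6 of 15 alternatives, Il7r with Bcl6 under 6 of 13, Il2ra with Prdm1 under 5 of 13, Il2rg in TIM-3+ against DN TILs under 5 of 15, Il2rg in Bcl6+ against TIM-3+ TILs under 3 of 15 beside its turn of sign, Il4ra with Bcl6 under 3 of 13, Il4ra in TIM-3+ against DN TILs under 2 of 15 and Il2ra in TIM-3+ against DN TILs under 1 of 15. The number of all genes called when 1 library was left out ranged over 735 to 1485 in Bcl6+ against DN TILs, 1696 to 2947 in TIM-3+ against DN TILs and 3 to 643 with Prdm1. With Prdm1 it was 275 with RLE scaling, 292 with total counts, 44 without a filter, 609 with TPM, 586 with DESeq2 and 515 in a fit of all 8 OT-I libraries. With Prdm1 the receptor genes called were 0 without a filter and with limma on FPKM, 2 with TPM, DESeq2, the replicate block and the 8-library fit, and 0 to 2 when 1 library was left out; with Bcl6 they were 2 to 4. Scaling moved the split of higher against lower calls. In Bcl6+ against TIM-3+ TILs it was 1857 against 1907, with total counts 2896 against 1283 and with TPM 3455 against 1123. In TIM-3+ against DN TILs it was 1454 against 1291, with total counts 869 against 2173 and with TPM 819 against 2275. In Bcl6+ against DN TILs it was 633 against 750, and with TPM 772 against 614. With Prdm1 it was 115 against 20, with RLE 191 against 84, with total counts 171 against 121 and with TPM 340 against 269. With Bcl6 it was 2459 against 2261, with TPM 1741 against 3784 and without a filter 2974 against 4029.

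The labels do not say that a replicate number marks a shared animal. The correlation of the deviations of same-numbered replicates was 0.00067 to 0.032 between TIL populations, 0.323 with Prdm1 and -0.0644 with Bcl6, where only 1 pair of groups was available for each. With the replicate number as a block, 1659 genes were called with Prdm1 in place of 135, among them Il2rg (0.82, adjusted p = 1.02e-08) and Prdm1 (adjusted p = 0.000136), with 9 transcription factors in place of 1 and 5 STAT5 targets in place of 0, and 3721, 1360, 2688 and 4621 in the other comparisons. With 2 libraries a group, differences within the intervals given for Il15ra, and for Il21r and Il2rb in OT-I cells, remain possible.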
